A study of Mus musculus with 6 samples.

Results

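The Hox genes of clusters A to D were followed in LSK cells. These are bone marrow cells sorted for Sca1 and c-Kit in the absence of lineage markers, and haematopoietic stem cells and multipotent progenitors are found among them. Members were all genes with the symbol Hoxa, Hoxb, Hoxc or Hoxd and a number. The mouse has 39 such genes in 4 clusters, and 33 of them could be read from a probe set assigned to that gene alone, out of 18193 genes read in all. Of these, 9 belonged to Hoxa, 9 to Hoxb, 7 to Hoxc and 8 to Hoxd. The others were not read here, apart from Hoxb8 and Hoxd4, which had only probe sets that they share with Hoxb7 and Hoxd3.

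The cells came from C57BL/6 mice aged 6 to 7 weeks, either IkL/L mutants or wild type (WT). IkL is a hypomorphic allele of Ikzf1, so that homozygous IkL/L mice have little functional Ikaros in any of their cells, not in LSK cells alone. There were 3 arrays per genotype, each IkL/L sample from 2 pooled mice and each WT sample from 1 mouse. Values are log2 intensities after RMA, in which background is subtracted, the arrays are given equal distributions and each probe set yields 1 value. Nothing in the sources ties the samples to separate litters or sorts, and the p-values reflect no more than how much these 3 samples per genotype varied. In bulk RNA of this kind, fewer cells of a type and less RNA per cell cannot be told apart.

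Hox proteins are transcription factors that bind DNA through a homeodomain, mostly together with the TALE homeodomain proteins Meis and Pbx. The genes sit in clusters in which their order along the chromosome follows the order of their expression along the body axis, and genes at the same place in different clusters are called paralogs. Trithorax proteins such as Kmt2a keep Hox genes active, and Polycomb complexes keep them silent. In the bone marrow, genes of the A cluster, Hoxa9 above all, are active in stem and early progenitor cells and are shut down as cells mature. Hoxb4 is known for expanding stem cells when it is overexpressed, and in the mouse Hoxb5 marks long-term stem cells.

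Over all probe sets, correlations between arrays lay between 0.986 and 0.995. On the first principal component (39.3% of the variance) the IkL/L arrays lay between 19.6 and 28, while WT 1, 2 and 3 lay at -18.6, -52.7 and 3.6, so WT 2 stood apart. Ikzf1, the targeted gene, was lower in IkL/L cells (10.85 ± 0.08 against 11.53 ± 0.08 in WT cells, SD, n = 3 each, limma adjusted p = 0.0307). The place of its probe set in relation to the mutated exons was not examined. The 4 LSK markers read, of 5 listed (Kit, Cd34, Flt3 and Cd48), averaged 10.84 to 11.09 on the IkL/L arrays and 11.24 to 11.38 on the WT arrays. This came mainly from Flt3 (-0.88, limma adjusted p = 0.132), since Kit, Cd34 and Cd48 differed by -0.13, -0.08 and -0.12 with overlap. The 3 T lineage markers averaged 4.62 to 4.82 in IkL/L cells and 4.69 to 4.81 in WT cells. The 2 B lineage markers averaged 4.86 to 5.72 in IkL/L cells and 3.83 to 3.92 in WT cells, mainly through Ms4a1 (2.38, adjusted p = 0.0165), since Cd79a differed by 0.23 with overlap. The erythroid gene Klf1 was at 8.80 ± 0.41 in IkL/L and 7.79 ± 0.30 in WT cells (adjusted p = 0.143). The 6 endothelial markers averaged 6.32 to 6.64 in IkL/L cells and 5.35 to 5.69 in WT cells. The endothelial difference came mainly from Cdh5, at 6.33 ± 0.35 in IkL/L and 3.82 ± 0.20 in WT cells (limma adjusted p = 0.00274). Tie1 and Esam each differed by 1.22 (adjusted p = 0.208 and 0.0962). Kdr differed by 0.24 (adjusted p = 0.500), while Emcn (0.07) and Pecam1 (0.006) hardly differed, with overlap. The 10 stromal markers, collagens among them, averaged 5.13 to 5.26 on the IkL/L arrays, against 6.33, 5.80 and 5.38 on WT 1, 2 and 3. Col1a1 (-1.43), Sparc (-1.24) and Col1a2 (-1.20) gave the largest differences. Col3a1 (0.03), Pdgfra (-0.02) and Pdgfrb (0.07) hardly differed.

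RMA gives no detection call. To say which Hox genes stood clear of background, their levels were set against those of 38 olfactory receptor genes. These were taken to be unexpressed, which was not tested. The 95th percentile of these genes served as the limit (4.59 in IkL/L and in WT cells). In WT cells 10 of the 33 Hox genes lay above this limit, compared with 65.1% of all genes. The Hoxa cluster contributed 5 of its 9 genes, Hoxb 3 of 9, Hoxc 1 of 7 and Hoxd 1 of 8. Levels of different genes come from different probes, so that their order also contains differences in how well the probes bind, which the spread between arrays does not measure.

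Hoxa9 had by far the highest level, at 11.89 ± 0.09 in WT cells (SD, n = 3), above 97.7% of all genes. It was followed by Hoxa7 (7.33 ± 0.10) and Hoxa5 (7.27 ± 0.14), which lay closer to each other than their spread between arrays, and then by Hoxb4 (6.64 ± 0.29). Hoxb3 (5.93 ± 0.11) and Hoxc9 (5.82 ± 0.08) came next, again close to each other, and then Hoxd9 (5.32 ± 0.17) and Hoxa10 (5.22 ± 0.07). Hoxb2 (4.80 ± 0.36) and Hoxa3 (4.75 ± 0.03) were just above the limit. With the 99th percentile of the olfactory receptor genes as the limit (4.88 in WT cells), Hoxb2 and Hoxa3 dropped out and 8 genes remained. Another Hoxa3 probe set, with a lower mean over the 6 arrays and so not read for the gene, stood at 5.01 ± 0.17 in WT cells, above this limit.

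In the Hoxb cluster the genes above the limit were the paralogs 2, 3 and 4, neighbours on the chromosome. Hoxb4 lay above it from 1 of its 2 probe sets. Hoxb1 stood at 2.81 and Hoxb5, Hoxb6, Hoxb7, Hoxb9 and Hoxb13 between 3.50 and 4.11. In Hoxa the genes above the limit were Hoxa3, Hoxa5, Hoxa7, Hoxa9 and Hoxa10. Hoxa6 was not read, and Hoxa10 lay above the limit from 1 of its 2 probe sets. Hoxa11 stood at 3.64 and Hoxa13 at 3.72, and Hoxa4 at 3.21 and Hoxa2 at 3.03 also lay below the limit. Among genes read from probe sets of their own, paralog 9 had the most members above the limit: Hoxa9, Hoxc9 and Hoxd9, but not Hoxb9 (4.10 ± 0.10). The other Hoxc genes ranged from 2.84 (Hoxc8) to 4.39 (Hoxc6), and the other Hoxd genes from 2.90 (Hoxd10) to 4.47 (Hoxd13). Hoxd10 to Hoxd13, genes of limb and genital development, all lay below the limit.

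**Figure D1:**
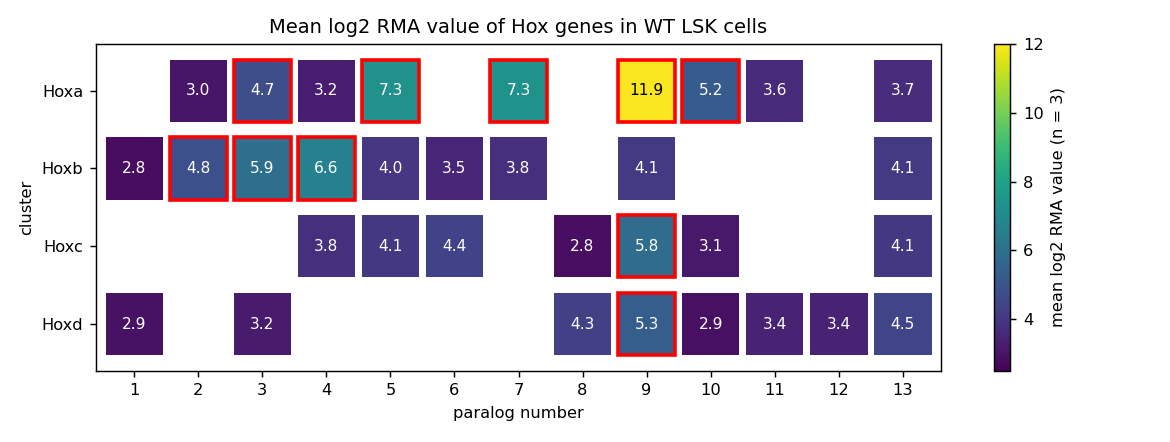
Mean log2 RMA value in WT LSK cells (colour and number, n = 3 arrays) of each Hox gene read, by cluster (rows) and paralog number (columns), with a red frame where the mean lies above the 95th percentile of olfactory receptor genes. Hoxa9 at 11.9 stands far above the rest, and the 10 framed genes lie mainly in Hoxa and Hoxb.

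The same genes were above the limit in IkL/L cells, with Hoxa10 leaving and Hoxb5 joining them. Over the 33 genes the difference between IkL/L and WT cells ranged from -0.78 to 0.66 on the log2 scale, with a median of -0.02, the same as that of all genes (-0.02). It was below 0 in 20 genes (60.6%) and above 0 in 13, where 55.5% of all genes were below 0. In limma, with adjustment over all 45037 probe sets, 1 gene was lower (Hoxa10) and none was higher, beside 0.242% of all genes called lower and 0.748% called higher. At an unadjusted p under 0.05, 3 were lower (Hoxa9, Hoxa10 and Hoxb3) and 1 was higher (Hoxb5), where 5.35% and 5.83% of all genes were. The same 3 genes had all IkL/L values below all WT values, against 9.59% of all genes, and 2 had them all above (Hoxa3 and Hoxb5), against 7.62%. For 33 genes, 3 and 2 genes with separate groups are close to these shares.

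**Figure D2:**
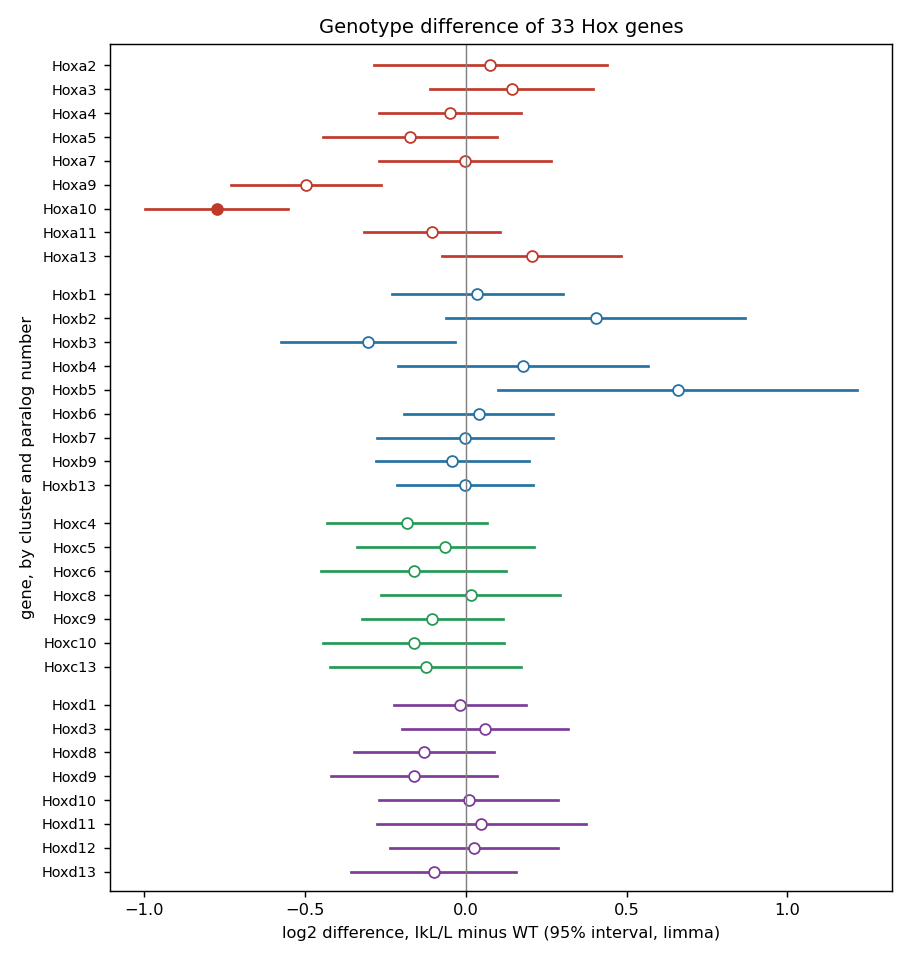
Log2 difference between IkL/L and WT cells (horizontal axis, with 95% intervals from limma) of the 33 Hox genes, ordered by cluster and paralog number down the page. Hoxa10 (filled) was the 1 gene with an adjusted p under 0.05; 29 of the 33 intervals contain 0, those of Hoxa9, Hoxa10, Hoxb3 and Hoxb5 being the others.

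Hoxa10, a regulator of myeloid and megakaryocytic development, was lower in IkL/L cells. It stood at 4.50, 4.49 and 4.34 on IkL/L 1, 2 and 3, against 5.23, 5.15 and 5.28 on WT 1, 2 and 3. Each group was tight and the groups were far apart, with every IkL/L value under the limit for unexpressed genes and every WT value above it. The difference was -0.78 with a standard error of 0.10 (limma adjusted p = 0.0175), which compares measured signals, and no fold is given because the IkL/L level lies among those of unexpressed genes and leaves the size of the change unknown. The adjusted p stayed under 0.05 without WT 2 (0.0410) or WT 3 (0.0443) and was 0.0573 to 0.104 when WT 1 or any of the IkL/L arrays was left out, while the difference stayed between -0.81 and -0.72. Against WT 3 alone the difference was -0.84 (adjusted p = 0.309), and over all alternatives the adjusted p ranged from 0.00438 to 0.309. A second Hoxa10 probe set did not show it, at 3.50 ± 0.03 in IkL/L and 3.42 ± 0.13 in WT cells (0.08, adjusted p = 0.868), a level under the limit in all samples. Averaged over both probe sets the difference was -0.35 (adjusted p = 0.102).

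Hoxa9, which lies next to Hoxa10 and is required for normal stem and progenitor cell function, differed in the same direction without passing the test. The values were 11.39, 11.49 and 11.30 on IkL/L 1, 2 and 3, against 11.84, 11.83 and 11.99 on WT 1, 2 and 3. The groups did not overlap, and the difference of -0.50 with a standard error of 0.10 equals a level 1.41-fold lower in IkL/L cells (adjusted p = 0.108). It passed the threshold with an intensity trend and robust moderation (0.0421) and with adjustment over 1 probe set per gene (0.0441), and over all alternatives the adjusted p ranged from 0.0421 to 0.507. Its dimmer probe set gave 7.05 ± 0.05 in IkL/L cells and 7.11 ± 0.13 in WT cells, with overlapping values (-0.06, adjusted p = 0.915). The probe sets of Hoxa9 thus gave differences of unequal size, and which transcripts each of them matches was not analysed here.

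Hoxa7 and Hoxa5, the bright genes on the anterior side of Hoxa9, gave differences whose intervals include 0. Hoxa7 was at 7.28, 7.19 and 7.51 on the IkL/L arrays and at 7.43, 7.32 and 7.24 on the WT arrays, for a difference of -0.003 with a 95% interval from -0.27 to 0.26. Hoxa5 was at 7.11, 7.22 and 6.96 on the IkL/L arrays and at 7.43, 7.15 and 7.23 on the WT arrays (-0.17, interval -0.44 to 0.10), and its other probe set gave -0.16. On the other side, Hoxa11 differed by -0.11 and Hoxa13 by 0.21, both from levels under the limit. Hoxa4 differed by -0.05, and its dimmer probe set by -0.26 (interval -0.49 to -0.04, adjusted p = 0.476), with all IkL/L values below all WT values at a level under the limit.

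The promoters of these genes are shown because Hoxa10 passed the test and Hoxa9 had the next smallest p of the Hox genes, while the intervals of Hoxa5 and Hoxa7, expressed from the same cluster, include 0. Each window holds the 250 bases before a RefSeq start (build GRCm38.p6, minus strand, read in the direction of the gene). Capitals mark AGGAA on the printed strand and its reverse complement TTCCT, a core present in sites of Ikaros and of Ets proteins. Hoxa10 has a window for each of 2 starts. The windows are chr6:52227371-52227620 for Hoxa9, chr6:52240855-52241104 and chr6:52234940-52235189 for the upstream and downstream starts of Hoxa10, chr6:52204588-52204837 for Hoxa5 and chr6:52218574-52218823 for Hoxa7.
Hoxa9: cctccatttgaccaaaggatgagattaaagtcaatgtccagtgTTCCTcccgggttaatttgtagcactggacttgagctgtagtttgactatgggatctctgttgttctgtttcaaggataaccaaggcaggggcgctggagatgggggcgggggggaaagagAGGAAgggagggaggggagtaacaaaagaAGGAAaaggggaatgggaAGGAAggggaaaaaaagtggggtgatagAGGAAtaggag
Hoxa10 upstream start: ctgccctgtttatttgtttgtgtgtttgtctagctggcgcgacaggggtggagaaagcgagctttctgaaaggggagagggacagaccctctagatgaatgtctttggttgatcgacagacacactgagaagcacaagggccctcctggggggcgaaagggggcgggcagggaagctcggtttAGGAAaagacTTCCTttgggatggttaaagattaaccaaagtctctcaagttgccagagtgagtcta
Hoxa10 downstream start: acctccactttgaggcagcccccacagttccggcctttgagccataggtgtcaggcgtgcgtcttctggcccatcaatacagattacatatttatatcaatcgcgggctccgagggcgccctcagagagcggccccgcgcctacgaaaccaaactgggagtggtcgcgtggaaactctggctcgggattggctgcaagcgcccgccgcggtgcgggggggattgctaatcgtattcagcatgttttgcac
Hoxa5: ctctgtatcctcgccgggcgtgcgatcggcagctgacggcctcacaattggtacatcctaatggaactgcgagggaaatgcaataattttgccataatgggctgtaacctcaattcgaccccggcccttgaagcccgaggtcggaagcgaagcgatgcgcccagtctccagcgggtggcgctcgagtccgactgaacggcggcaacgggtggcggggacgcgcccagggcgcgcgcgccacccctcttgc
Hoxa7: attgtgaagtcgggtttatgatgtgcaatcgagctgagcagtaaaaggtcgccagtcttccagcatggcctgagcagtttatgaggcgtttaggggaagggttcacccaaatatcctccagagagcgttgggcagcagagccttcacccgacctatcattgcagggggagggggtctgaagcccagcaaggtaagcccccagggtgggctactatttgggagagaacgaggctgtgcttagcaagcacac
The Hoxa9 window held 5 copies of AGGAA, counted on both strands, and that of the upstream Hoxa10 start 2, whereas the windows of the downstream Hoxa10 start, Hoxa5 and Hoxa7 held 0. All motifs were searched on both strands, and no marked copy overlapped another motif. In the same cluster the windows of Hoxa3, Hoxa11 and Hoxa2 held 3, 2 and 1, beside differences of 0.14, -0.11 and 0.08. Another Hoxa3 probe set gave -0.56, and the Hoxa13 window held 0 beside a difference of 0.21. At least 1 copy was found in 60.3% of 32851 promoter windows of this length and in 11 of 21 windows of 19 Hox genes read here. At least 2 were found in 26.0% of all windows and at least 5 in 0.81%. The motif TGACAG, a core bound by Meis proteins, was in none of these 5 windows and in 15.9% of all windows, and TATAAA was in 1 of the 5 (the downstream Hoxa10 start) and in 12.4% of all. Hox windows had a median of 13 CG pairs and 59.2% G and C, against 6 and 52.4% in all windows. Such matches describe the sequence and say nothing of what binds there in LSK cells.

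Hoxa3, an anterior gene of the cluster, gave opposite values from its probe sets. The probe set with the highest mean was at 4.79, 4.80 and 5.08 on the IkL/L arrays and at 4.74, 4.78 and 4.72 on the WT arrays, barely apart (0.14, adjusted p = 0.777). Another was at 4.62, 4.32 and 4.42 on the IkL/L arrays and at 4.94, 4.89 and 5.21 on the WT arrays, so that all IkL/L values were lower (-0.56, interval -0.85 to -0.26, adjusted p = 0.157). On IkL/L 2 and 3 it lay under the limit for unexpressed genes, which leaves the size of this difference unknown. The dimmer Hoxa3 probe sets, under the limit in both genotypes, gave -0.05 and -0.10. In the RefSeq annotation the longest form of Hoxa3 runs over Hoxa4, Hoxa5 and Hoxa6, and the signal of overlapping transcripts may not be told apart. Hoxb3 overlaps Hoxb4 and Hoxd3 overlaps Hoxd4 in the same way.

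**Figure D3:**
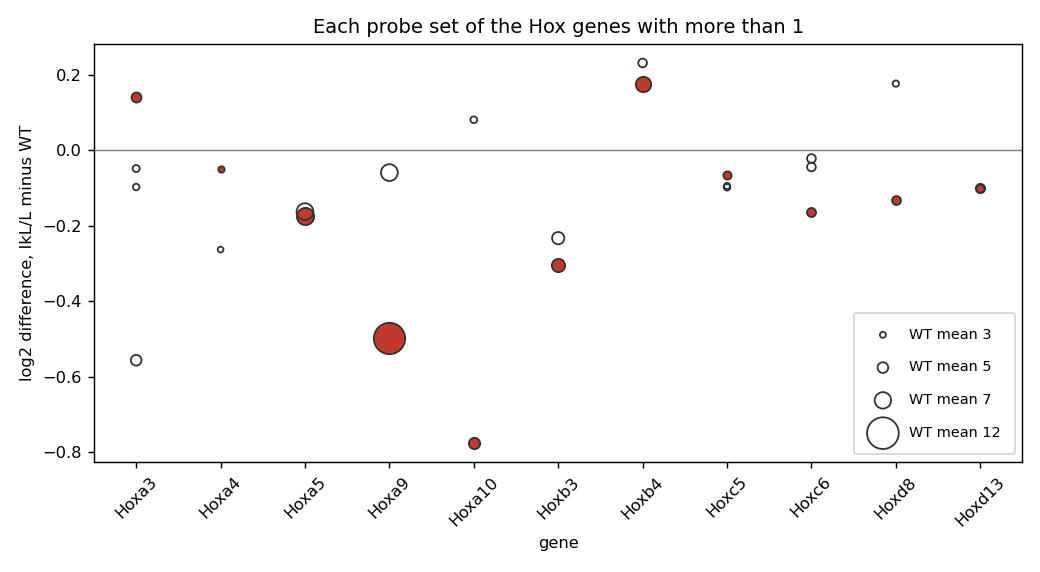
Log2 difference between IkL/L and WT cells (vertical axis) of each probe set of the 11 Hox genes with more than 1, with the point size growing with the WT mean and the probe set read for the gene in red. For Hoxa9 and Hoxa10 the red probe sets lie at -0.50 and -0.78 and the others near 0, and for Hoxa3 the probe sets lie on both sides of 0.

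In the Hoxb cluster no gene passed the test, and the values ran in different directions. Hoxb5 was at 4.69, 5.21 and 4.10 on IkL/L 1, 2 and 3, against 4.013, 4.013 and 4.002 on WT 1, 2 and 3. The WT values were almost identical and under the limit, IkL/L 1 and 2 were above it, and IkL/L 3 was close to the WT level. The difference was 0.66 with a standard error of 0.24 (adjusted p = 0.468), 0.39 without IkL/L 2 and 0.94 without IkL/L 3 (adjusted p = 0.701 and 0.0950), with a range of 0.0950 to 0.910 over all alternatives.

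Hoxb5os, a non-coding gene that overlaps Hoxb5 and Hoxb6 on the chromosome, gave a brighter signal than either, from probes of its own whose strand and target transcript were not examined. It stood at 8.60, 8.94 and 8.41 on IkL/L 1, 2 and 3, against 7.47, 7.92 and 7.70 on WT 1, 2 and 3. All IkL/L values were above all WT values, 1.94-fold on average (0.95 with a standard error of 0.17, adjusted p = 0.0634). It passed the threshold with adjustment over 1 probe set per gene (0.0176), with array weights (0.0297), with probe sets averaged per gene (0.0233) and with an intensity trend and robust moderation (0.0417). Without 1 array the adjusted p ranged from 0.0732 to 0.251, and it was 0.494 without WT 1 and WT 2. Hoxb6 itself was at 3.54 ± 0.09 in IkL/L and 3.50 ± 0.10 in WT cells.

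Hoxb2, Hoxb3 and Hoxb4, the run of this cluster above the limit, gave differences of both signs, none of which passed. Hoxb2 was at 4.97, 5.48 and 5.17 on the IkL/L arrays and at 4.47, 5.19 and 4.75 on the WT arrays, with overlap (0.40, adjusted p = 0.637). Hoxb3 was at 5.80, 5.61 and 5.48 on the IkL/L arrays and at 5.80, 6.01 and 5.99 on the WT arrays, where IkL/L 1 and WT 1 were all but equal (-0.30, adjusted p = 0.500), and its second probe set gave -0.23. Hoxb4 was at 6.62, 7.03 and 6.81 on the IkL/L arrays and at 6.47, 6.48 and 6.98 on the WT arrays (0.18, adjusted p = 0.826). Its difference was -0.16 against WT 3 alone. The dimmer Hoxb4 probe set, under the limit in both genotypes, was at 4.49 ± 0.04 in IkL/L and 4.26 ± 0.18 in WT cells. There all IkL/L values were above all WT values (0.23, limma adjusted p = 0.622).

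Hoxc9 and Hoxd9, the brightest genes of their clusters, gave small differences that did not pass the test. Hoxc9 was at 5.78, 5.69 and 5.66 on the IkL/L arrays and at 5.84, 5.88 and 5.73 on the WT arrays (-0.10, interval -0.32 to 0.11). Hoxd9 was at 5.11, 5.22 and 5.14 on the IkL/L arrays and at 5.15, 5.48 and 5.32 on the WT arrays (-0.16, interval -0.42 to 0.10). Of the 10 stromal markers 0 passed and 4 were lower at an unadjusted p under 0.05, where 5.35% of all genes were. These markers differed by -1.43 (Col1a1) to 0.07 (Pdgfrb). Their part in the values of Hox genes was not tested. The other 13 genes of Hoxc and Hoxd lay below the limit and differed by -0.18 (Hoxc4) to 0.06 (Hoxd3), and none had an unadjusted p under 0.05. A small change could be missed at such levels. The shared probe sets gave 3.44 ± 0.11 in IkL/L and 3.61 ± 0.23 in WT cells for Hoxb8 with Hoxb7. For Hoxd4 with Hoxd3 the brighter of them gave 4.91 ± 0.03 in IkL/L and 5.07 ± 0.16 in WT cells (-0.17, adjusted p = 0.732), above the limit on every array, without showing which of the genes it came from.

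**Figure D4:**
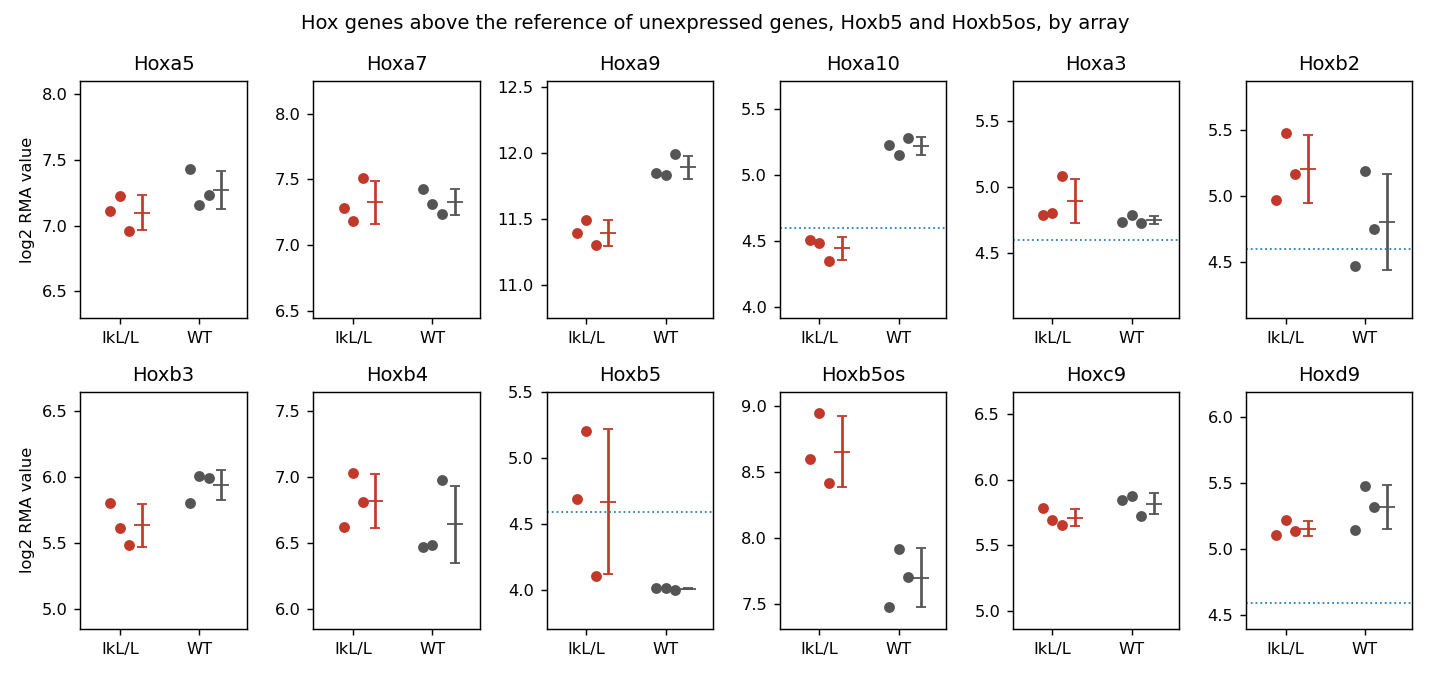
Log2 RMA value (vertical axis, spanning the same range in each panel and not starting at 0) on each IkL/L (red) and WT (grey) array of the 10 Hox genes above the limit in WT cells, of Hoxb5 and of Hoxb5os, with mean and SD of 3 arrays. The dotted line is the 95th percentile of olfactory receptor genes in WT cells, and Hoxa10 lies below it on all IkL/L arrays and above it on all WT arrays.

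Among the IkL/L arrays, Hoxb5 and Hoxb5os shared an order with genes of stem cells. All 8 stem cell genes read (Fgd5, Vwf, Tek, Mecom, Procr, Hlf, Ctnnal1 and Slamf1) were highest on IkL/L 2 and lowest on IkL/L 3, as were Hoxb5, Hoxb5os and Hoxa9. This order was found in 20.0% of all genes and in 5 of the 33 Hox genes (Hoxa5, Hoxa9, Hoxb5, Hoxc6 and Hoxc10). It was not particular to stem cell genes. The erythroid gene Klf1, 3 of 6 endothelial markers and 3 of 8 TALE cofactors had it too, as did 1 of 11 Polycomb genes and 0 of 3 T lineage markers. Between genotypes the 8 stem cell genes did not all share a direction, with a median difference of 0.52. In limma 3 of them passed as higher in IkL/L cells, where 0.748% of all genes did. These were Fgd5 (1.65), Vwf (1.73) and Tek (1.05), with adjusted p of 0.0125, 0.0154 and 0.0171. Procr (0.69), Ctnnal1 (0.36) and Slamf1 (0.06) gave positive differences that did not pass (0.409, 0.509 and 0.975). Mecom (-0.47) and Hlf (-0.59) gave negative differences that did not pass (0.328 and 0.447). The part of stem cell content in the values of Hoxb5 or Hoxa9 was not tested.

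**Figure D5:**
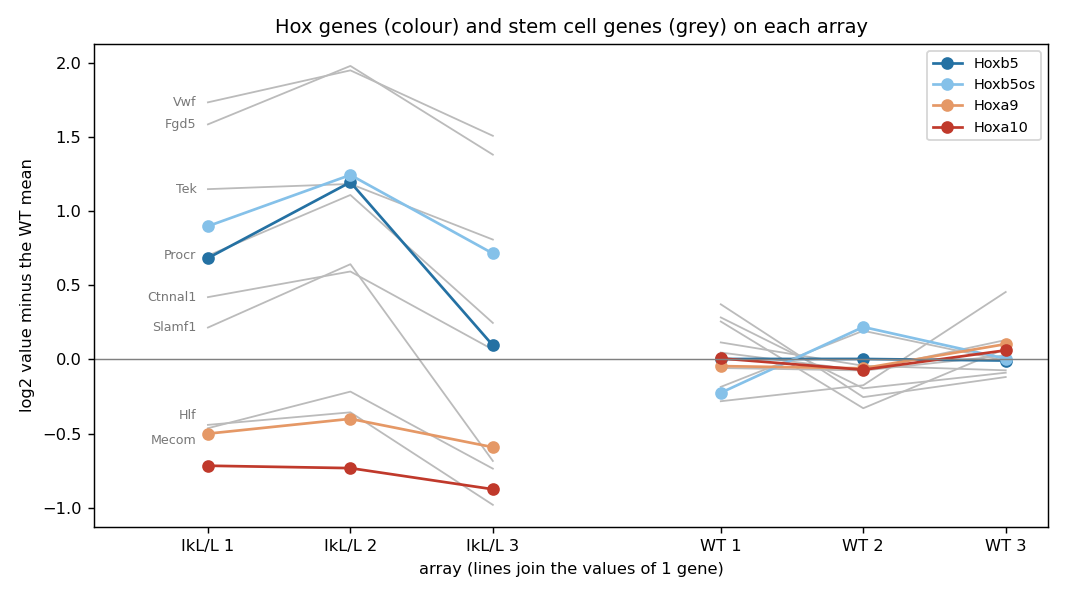
Log2 RMA value minus the WT mean of the same gene (vertical axis) on each IkL/L and WT array, for Hoxb5, Hoxb5os, Hoxa9 and Hoxa10 in colour and 8 stem cell genes in grey. IkL/L 2 is the highest and IkL/L 3 the lowest IkL/L array for Hoxb5, Hoxb5os, Hoxa9 and all grey genes, while Hoxa10 is low on all 3.

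The partners and regulators of Hox genes showed no called difference, and the counts at an unadjusted p under 0.05 stand beside 5.35% of all genes lower and 5.83% higher. Of the TALE cofactors 8 of 9 were read and 0 passed in limma, with a median difference of -0.05. Meis2, below the limit at 3.19 ± 0.11 in IkL/L and 3.57 ± 0.05 in WT cells, was the 1 gene of this list with an unadjusted p under 0.05 (adjusted p = 0.234). Meis1, the main partner of Hoxa9, was at 10.24, 10.27 and 9.91 on the IkL/L arrays and at 10.30, 9.81 and 10.21 on the WT arrays, with overlap (0.03, adjusted p = 0.975). Of 10 activators of Hox genes 0 passed, and 1 was lower at an unadjusted p under 0.05 (Cdx1, at 4.05 ± 0.04 in IkL/L and 4.33 ± 0.13 in WT cells and thus below the limit). Their median difference was -0.20, with Kmt2a at -0.24 (adjusted p = 0.623). Of 11 Polycomb genes 0 passed, and 3 were lower at an unadjusted p under 0.05, around a median of -0.13. These were Cbx2 (-0.56, adjusted p = 0.136), Bmi1 (-0.52, 0.227) and Ezh2 (-0.30, 0.552). Of 18 genes next to the clusters 0 passed and 0 had an unadjusted p under 0.05, with differences from -0.24 to 0.22. Skap2, beyond the anterior end of Hoxa, was bright in both genotypes and differed by -0.06 (adjusted p = 0.933), and Evx1, beyond its posterior end, was under the limit in both.

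Among genes known as targets of these factors, 3 passed as higher in IkL/L cells and 0 as lower, where 0.748% and 0.242% of all genes did. Of 6 genes that Hoxa10 is known to regulate in myeloid cells, Itgb3, an integrin of megakaryocytes, was at 9.44, 9.49 and 8.89 on the IkL/L arrays, against 7.67, 7.21 and 7.38 on the WT arrays (1.85, adjusted p = 0.00878). Cybb, a subunit of the phagocyte oxidase, was at 6.82, 6.74 and 6.31 on the IkL/L arrays, against 5.14, 4.14 and 5.09 on the WT arrays (1.83, adjusted p = 0.0347). Hoxa10 is known to activate Itgb3 and to repress Cybb, and its part in the values of these 2 genes was not tested. Of 4 markers of mature myeloid cells, Lyz2 was at 11.02 ± 0.27 in IkL/L and 10.27 ± 0.07 in WT cells (adjusted p = 0.0871) and S100a8 at 7.43 ± 1.25 in IkL/L and 5.91 ± 1.04 in WT cells (0.578), while C1qa differed by -0.87 and Itgam by -0.13. Their part in the difference of Cybb was not tested. Of 11 known targets of Hoxa9, Id2, an inhibitor of E proteins, was at 7.08, 7.42 and 7.25 on the IkL/L arrays, against 6.17, 6.10 and 6.49 on the WT arrays (0.99, adjusted p = 0.0297). Flt3, a cytokine receptor of multipotent progenitors, had all IkL/L values below all WT values without passing (9.80 ± 0.24 in IkL/L and 10.69 ± 0.34 in WT cells, -0.88, unadjusted p = 0.0018, adjusted p = 0.132 by limma), and Sox4 gave -0.42 (adjusted p = 0.318). Over these lists and those of the partners, regulators and neighbours 3 of 63 genes passed, but 0 did when IkL/L 1 was left out. The number was 1 on leaving out WT 1, IkL/L 3 or IkL/L 2, while leaving out WT 2 gave 2 and leaving out WT 3 gave 4.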

How the data were processed

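RNA of sorted LSK cells (100 ng per sample, amplified in a 2-cycle reaction) had been hybridised to Affymetrix mouse genome arrays. Deposited values are on a log2 scale and were produced by the authors with RMA in R 2.8, as the submitters' processing notes give it, and their methods state a joint normalization with thymocyte arrays, which the values cannot show. Gene symbols came from the array platform's table and were updated by Entrez number (34741 of 34945 single-gene probe sets matched a RefSeq table of GRCm38.p6). A gene was read from its probe set with the highest mean over the 6 arrays. The genotypes were compared by a two-sided moderated test (limma 3.58.1, R 4.3.3) without covariates, and p-values were adjusted after Benjamini and Hochberg over the 45037 probe sets, with a threshold of 0.05. The fit was checked on simulated arrays. Precision is set by having 3 arrays per genotype. Values on every array are given for Hox genes that passed, that lay above the limit in WT cells, or whose groups did not overlap at an unadjusted p under 0.05. Of related lists, up to 4 genes with the smallest p were named, and other Hox or list genes named beside them were chosen after their values were seen. The members and lists were chosen with earlier results of these data known. Alternatives were a second quantile normalization, median centring, filters on dim probe sets, intensity trend with robust moderation, array weights, a replicate block, averaging probe sets per gene, adjustment per gene, and leaving out arrays.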

Additional observations from a re-analysis of the deposited data

How the results depend on the processing

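Of the 33 Hox genes 1 passed with all arrays, and 0 to 1 when 1 array was left out. The number was 2 with an intensity trend and robust moderation and 2 with adjustment over 1 probe set per gene (Hoxa9 and Hoxa10). It was 0 with the replicate block (Hoxa10 adjusted p = 0.0805 by limma), 0 with probe sets averaged per gene, 0 without WT 1 and WT 2, a setting chosen after seeing the data that leaves 1 WT array assumed to vary like the others, and 0 of the 4 genes left at a mean of at least 6, a filter that removes Hoxa10. Of the 63 genes of related lists 3 passed, 0 to 4 without 1 array, 1 with the replicate block and 0 without WT 1 and WT 2. No pairing by replicate number was seen in the values. Deviations from the group means correlated at 0.0084, -0.11 and 0.079 between arrays of the same number. Between arrays of different numbers they correlated at -0.13 to 0.12. Whether samples were sorted or processed in pairs cannot be told from such correlations. Hoxa7, with a difference near 0, changed sign to 0.014 with median centring and 0.087 without WT 1 and WT 2, and ranged from -0.094 to 0.067 without 1 array. Hoxa3 turned to -0.14 with the mean of its probe sets and Hoxb4 to -0.16 without WT 1 and WT 2. The cause was not tested, other than that Hoxa3 was brought down by the probe set at -0.56. The count of Hox genes above the limit in WT cells was 8 to 10 in 5 alternatives.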

Other observations

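Of the antisense and non-coding genes of the other clusters, only Hoxa11os and Hoxd3os1 were looked at, and they were dim. Hoxa11os was at 3.56 ± 0.10 in IkL/L and 3.46 ± 0.03 in WT cells, and Hoxd3os1 at 3.05 ± 0.06 in IkL/L and 3.20 ± 0.28 in WT cells (SD, n = 3 each), so that Hoxb5os, with 8.65 ± 0.27 in IkL/L and 7.70 ± 0.22 in WT cells, was the 1 of these 3 above the limit for unexpressed genes.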
